A study of Mus musculus with 6 samples.

Results

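Quiescence genes, D cyclins and Myc are 9 genes that hold a lymphocyte out of the cell cycle or move it into G1. They were taken by gene symbol from the authors' full table of 17744 genes: Btg1, Btg2, Tob1, Cdkn1a, Cdkn1b, Cdkn2d, Ccnd2, Ccnd3 and Myc. All 9 are listed there, and all 9 passed the filter on low values that left 10655 genes to test. The libraries come from mouse spleen CD8 T cells, sorted as CD45+ CD3+ CD8a+. The controls are 3 libraries whose genotype is given as wt and whose treatment is given as control. The other 3, here called ultrasound libraries, carry fus irradiation as their treatment, and the same words stand in place of a genotype. Series title and labels together name focused ultrasound of the spleen, sound waves concentrated on a tissue from outside the body. Strain, age, dose and the time between treatment and sorting are not given in the sources used here. Nothing in the labels says that the libraries came from separate animals, so p-values measure the spread between these libraries, which may be technical.

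A resting T cell stays out of the cycle through several layers of control. BTG and TOB proteins recruit the CCR4-NOT deadenylase to mRNAs and so shorten their lifetime, and Btg1 and Btg2 are known for holding naive T cells quiescent. CDK inhibitors of the CIP/KIP family (Cdkn1a, Cdkn1b) and the INK4 family (Cdkn2d) restrain cyclin-dependent kinases. D-type cyclins bind CDK4 and CDK6 and start the phosphorylation of the retinoblastoma protein, and Myc, induced soon after T cell receptor engagement, drives growth and biosynthesis. Btg2, Tob1 and Myc messengers are short-lived, and Btg2 and Cdkn1a are also classical p53 targets.

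The stretch before the transcription start is shown for the 3 BTG/TOB genes, which moved together, and for Ccnd3, which moved the opposite way. Each is the 250 bases upstream of a RefSeq start in GRCm38.p6, the assembly of the mm10 build named in the submitters' processing notes, read 5′ to 3′ on the gene's strand. None of these 4 windows overlapped a gene in GENCODE M21. The RefSeq span of Tob1 begins further upstream, at 94209842 on chromosome 11, so its window lies inside the span that RefSeq gives for the gene. Capitals mark matches on either strand. The motifs searched were the cAMP response element (TGACGTCA), bound by CREB and ATF factors, and the AP-1 site (TGAGTCA), bound by FOS and JUN proteins. Beside them stood the E-box of MYC and MAX (CACGTG), the CCAAT box, which is spelled as its name, the TATA box (TATAAA), the forkhead site (GTAAACA), the GC box (GGGCGG), the NF-kB site and the CArG box of serum response factor.
Btg1, chr10:96616751-96617000, plus strand: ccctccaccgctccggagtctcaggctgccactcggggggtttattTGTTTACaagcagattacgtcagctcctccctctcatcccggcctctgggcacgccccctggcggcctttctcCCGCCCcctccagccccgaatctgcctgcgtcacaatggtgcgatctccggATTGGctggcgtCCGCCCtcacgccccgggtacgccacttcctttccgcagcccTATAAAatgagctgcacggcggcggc
Btg2, chr1:134079156-134079405, minus strand: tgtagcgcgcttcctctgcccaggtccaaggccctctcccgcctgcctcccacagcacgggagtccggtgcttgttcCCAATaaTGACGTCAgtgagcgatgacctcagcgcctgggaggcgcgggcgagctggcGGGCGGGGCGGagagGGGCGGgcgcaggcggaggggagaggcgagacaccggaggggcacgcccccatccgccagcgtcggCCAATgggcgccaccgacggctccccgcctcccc
Tob1, chr11:94211204-94211453, plus strand: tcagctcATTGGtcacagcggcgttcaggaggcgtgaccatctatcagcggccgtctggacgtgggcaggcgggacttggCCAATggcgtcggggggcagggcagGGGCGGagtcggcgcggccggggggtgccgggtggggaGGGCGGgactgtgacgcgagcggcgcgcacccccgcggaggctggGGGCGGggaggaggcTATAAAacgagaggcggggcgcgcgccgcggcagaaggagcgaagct
Ccnd3, chr17:47504801-47505050, plus strand, the upstream of its 2 listed starts: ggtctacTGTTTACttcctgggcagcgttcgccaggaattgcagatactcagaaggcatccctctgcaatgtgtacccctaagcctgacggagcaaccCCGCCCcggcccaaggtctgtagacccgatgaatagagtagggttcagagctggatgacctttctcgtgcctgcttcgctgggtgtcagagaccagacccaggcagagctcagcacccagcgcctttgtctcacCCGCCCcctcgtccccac

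Promoter windows were listed for 7 of the 9 genes, 9 windows in all, since Cdkn1a and Ccnd3 have 2 starts each. Btg2 held the only cAMP response element among them, with its first base 166 bases before the start. A CCAAT box lay just upstream of it, at 173. Of all 32851 promoter windows in the RefSeq table, 1.55% held a cAMP response element. CCAAT boxes occurred in 6 of the 9 windows, against 33.8% of all windows. Btg1 and Tob1 each held a TATA box, at 26 and 47 bases, which 12.4% of all windows did. A forkhead site, the kind of sequence FOXO factors bind, was found in Btg1 at 204 bases and in the printed Ccnd3 window at 243, against 3.17% of all windows. GC boxes occurred in 8 of the 9 windows and in 32.7% of all, and 2 of those in Btg2 overlap each other. The share of G and C was 54.0% to 73.6% in the 9 windows, with a median of 52.4% over all windows. The part of this base content in the motif shares was not tested. No AP-1 site, E-box, CArG box or NF-kB site was found in the 9 windows. These matches describe letters only, and which start was used in these cells was not measured.

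The libraries hold 35024080 to 38113103 recovered reads each, and no pair agreed within counting noise (every chi-square per degree of freedom was at least 20.5). The 9 genes had between 282 and 59295 reads per library. Levels are given as FPKM, fragment numbers divided by gene length and by library depth, so they can be compared between genes. Changes are log2 differences of FPKM + 1, ultrasound minus control, from limma, with p-values adjusted over all 10655 genes by the Benjamini-Hochberg method. In bulk libraries, fewer cells of a type and less RNA per cell cannot be told apart. The labelled cell type was checked by its markers. Of 10 T cell markers, 9 are in the table. Their summed level was 2398 to 2534 FPKM in controls and 2063 to 2718 in ultrasound libraries, and 0 of these 9 passed the limma threshold.

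Of the 9 genes, 4 passed an adjusted p of 0.05 by limma. Btg1, Btg2 and Tob1 fell and Ccnd3 rose. Of all genes tested, 8.11% passed in either direction, 1.56% lower and 6.55% higher. The median log2 change was -0.49 over the 9 genes and 0.09 over all genes tested. All ultrasound libraries lay below all controls for 5 of the 9 (Btg1, Btg2, Tob1, Cdkn1b, Cdkn2d) and above them for 2 (Ccnd2, Ccnd3), against 8.96% and 25.9% of all genes.

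**Figure D1:**
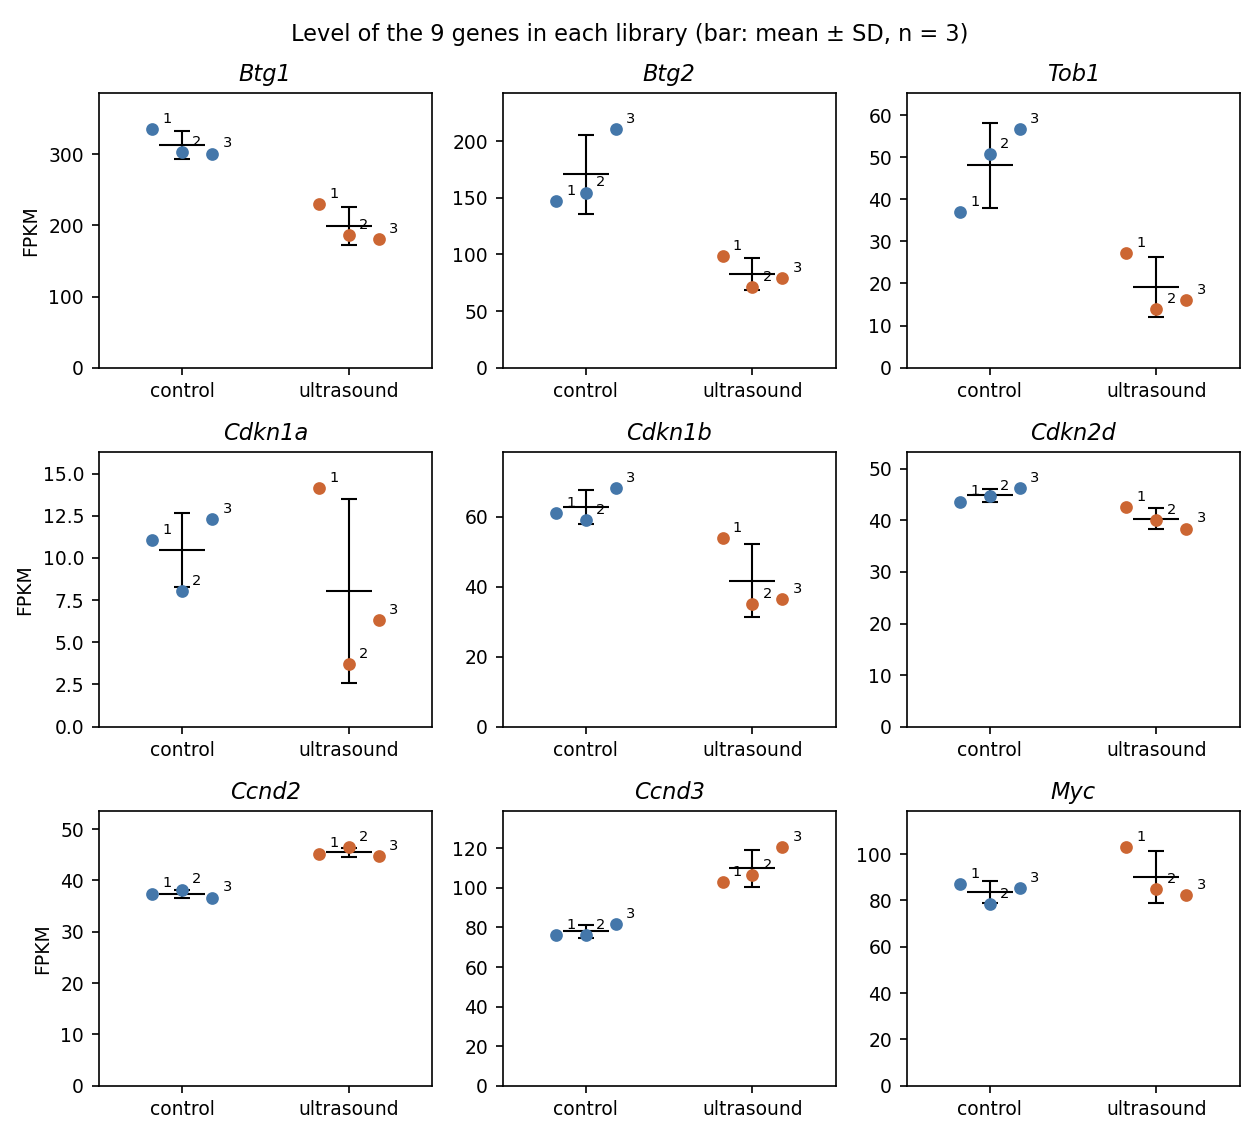
FPKM (vertical axes, from 0) of each gene in the 3 control (blue) and 3 ultrasound (orange) libraries, numbered by replicate, with black bars for mean and SD. Btg1, Btg2 and Tob1 sit lower in every ultrasound library, Ccnd2 and Ccnd3 sit higher, and Cdkn1a and Myc have their highest value in ultrasound 1.

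The BTG and TOB genes were the members with the lowest ratios of ultrasound to control. Btg1 (NCBI Gene 12226, chromosome 10, 96617001 to 96622813 in GRCm38.p6) was the most abundant of the 9 genes, at 335, 303 and 301 FPKM in control 1, 2 and 3. Ultrasound 1, 2 and 3 had 230, 186 and 181 FPKM. The groups did not overlap, and the means of 313 ± 19.1 and 199 ± 26.8 FPKM (SD, n = 3 each) correspond to a level that fell by 36.6%. The log2 change was -0.66 with a standard error of 0.12 (limma adjusted p 0.0312). Even after this fall, Btg1 remained the highest of the 9 in every ultrasound library.

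Btg2 (NCBI Gene 12227, chromosome 1, 134074865 to 134079155) had 147, 155 and 211 FPKM in control libraries and 98.5, 71.4 and 78.9 in ultrasound 1, 2 and 3. Control 3 stood apart from the other controls, and even the lowest control lay above the highest ultrasound library. The means were 171 ± 34.7 and 82.9 ± 14.0 FPKM (SD, n = 3 each), 2.06-fold higher in controls. Its log2 change was -1.03 with a standard error of 0.18 (limma adjusted p 0.0311).

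Tob1 (NCBI Gene 22057, chromosome 11, 94209842 to 94215495), whose protein shares the BTG domain and binds poly(A)-binding protein, showed the greatest fold difference of the 9. Its levels were 36.9, 50.6 and 56.6 FPKM in control libraries and 27.3, 14.0 and 16.0 in the ultrasound libraries. The lowest control, control 1, and the highest ultrasound library, ultrasound 1, approached each other without crossing. The means were 48.0 ± 10.1 and 19.1 ± 7.16 FPKM (SD, n = 3 each), 2.52-fold higher in controls, with a log2 change of -1.32, a standard error of 0.27 and a limma adjusted p of 0.0377. Only 0.817% of all genes tested had a lower log2 change than Tob1, 1.41% a lower one than Btg2 and 3.13% a lower one than Btg1.

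The ratio of Btg2 to Btg1, which does not move with library scaling, was compared within each library. Its log2 was -1.19, -0.97 and -0.52 in control libraries and -1.22, -1.38 and -1.20 in ultrasound 1, 2 and 3. Control 1 and ultrasound 3 nearly met, and control 3 was the highest. The group means differed by -0.37, at the two-sided exact permutation p of 0.10 that is the smallest 3 against 3 libraries can give. Without control 3 the difference was -0.18.

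The CDK inhibitors were less uniform. Cdkn1b (NCBI Gene 12576, chromosome 6, 134920401 to 134925525), which encodes p27, had 61.1, 59.1 and 68.1 FPKM in control libraries and 53.8, 34.9 and 36.5 in ultrasound 1, 2 and 3. The groups did not overlap, but ultrasound 1 lay close to the controls. The log2 change of -0.60 (standard error 0.17) had a limma adjusted p of 0.0760 and did not pass. In the authors' deposited table the same gene has a log2 fold change of -0.71 and a q of 0.0117.

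Cdkn2d (NCBI Gene 12581, chromosome 9, 21288459 to 21291421), the INK4 inhibitor p19, showed little spread: 43.6, 44.7 and 46.2 FPKM in control libraries and 42.6, 40.0 and 38.4 in the ultrasound libraries. Every ultrasound library lay below every control, by as little as 42.6 against 43.6. The log2 change was -0.15 with a 95% interval from -0.34 to 0.04 (limma adjusted p 0.236).

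Cdkn1a (NCBI Gene 12575, chromosome 17, 29090979 to 29100722), which encodes p21, was the lowest of the 9 and the most variable among ultrasound libraries. The controls had 11.0, 8.03 and 12.3 FPKM. Ultrasound 1 had 14.1 FPKM, and the other ultrasound libraries 3.69 and 6.30. Ultrasound 1 was thus above every control while ultrasound 2 and 3 were below every control. These levels rest on 1013, 282 and 489 reads, so counting error is small beside the spread. The log2 change of -0.49 had a 95% interval from -1.46 to 0.47 (limma adjusted p 0.416). Without ultrasound 1 it was -0.95 with a limma adjusted p of 0.0235, in a fit where 53.7% of all genes tested passed. For ultrasound 1 against the controls the log2 change was 0.42.

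The D cyclins among the 9, Ccnd3 and Ccnd2, lay on the other side of the controls. Of all genes tested, 87.5% had a lower log2 change than Ccnd3 and 73.2% a lower one than Ccnd2. Ccnd3 (NCBI Gene 12445, chromosome 17, 47505051 to 47599689) had 76.3, 76.2 and 81.8 FPKM in control libraries and 103, 107 and 121 in ultrasound 1, 2 and 3. The groups did not overlap. The means of 78.1 ± 3.20 and 110.02 ± 9.33 FPKM (SD, n = 3 each) give a ratio of 1.41, and the log2 change was 0.49 with a standard error of 0.09 (limma adjusted p 0.0339). With median-of-ratios size factors, which move the median of all genes by 0.11, it was 0.36 with a limma adjusted p of 0.0820, and with upper-quartile factors 0.37 with 0.0683. The direction held under both scalings, and the call did not.

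Ccnd2 (NCBI Gene 12444, chromosome 6, 127125162 to 127152188) was the most even of the 9 within groups. It had 37.4, 38.2 and 36.7 FPKM in control libraries and 45.2, 46.5 and 44.7 in the ultrasound libraries. The gap between the groups exceeded the range within either. The means were 37.4 ± 0.777 and 45.5 ± 0.901 FPKM (SD, n = 3 each), and the log2 change was 0.27 with a standard error of 0.07. It did not pass (limma adjusted p 0.0670). Median-of-ratios size factors gave a log2 change of 0.15 and a limma adjusted p of 0.203. An overlap with other transcription units limits both cyclins where counting does not use strand, which is not stated. Bysl, which shares 359 bases with Ccnd3, had 9.14 to 12.8 FPKM. Gm41590, a long non-coding RNA that shares 7217 bases with Ccnd3, was not analysed here. The long non-coding RNA 9330179D12Rik, which shares 2800 bases with the Ccnd2 locus, had at most 0.817 FPKM. Ccnd3 also has a pseudogene, Ccnd3-ps, not analysed here. GENCODE M21 also places a provisional gene model, AC167363.2, on the opposite strand within the Cdkn1a locus, and without strand its reads could not be told from Cdkn1a reads. Btg1 has the annotated copies Btg1-ps1 and Btg1-ps2 on chromosome X, not analysed here, and how reads shared with them were counted is not given in the sources used here.

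Within the pair of D cyclins measured here, Ccnd3 held 67.1%, 66.6% and 69.1% of the summed FPKM in control libraries and 69.5%, 69.7% and 73.0% in ultrasound 1, 2 and 3. Control 3 and ultrasound 1 were less than a percentage point apart. The mean share was 67.6 ± 1.30% in controls and 70.7 ± 1.96% in ultrasound libraries (SD, n = 3 each), a difference of 3.10 percentage points with a two-sided exact permutation p of 0.10, the smallest possible. With Ccnd1 added to the sum the difference was 2.70 points and the exact permutation p 0.20. Without ultrasound 3 it was 1.97 points.

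**Figure D2:**
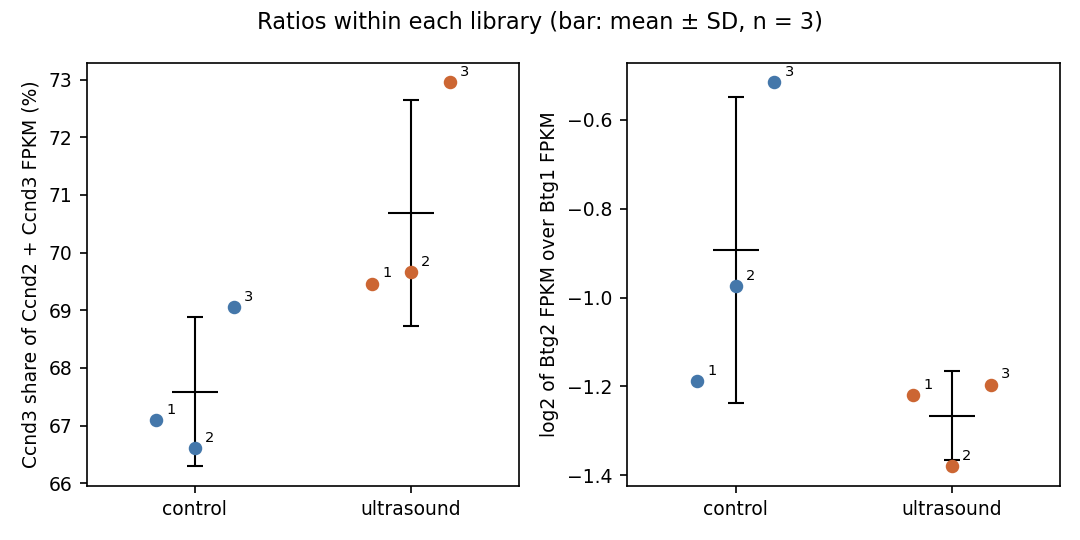
Left, share of Ccnd3 in the summed FPKM of Ccnd2 and Ccnd3 (percent); right, log2 of Btg2 FPKM over Btg1 FPKM; points are libraries numbered by replicate, black bars mean and SD, and neither vertical axis starts at 0. Ultrasound libraries lie above all controls on the left (69.5% to 73.0% against 66.6% to 69.1%) and below them on the right.

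Myc (NCBI Gene 17869, chromosome 15, 61985341 to 61990361) did not follow either set. It had 87.1, 78.3 and 85.3 FPKM in control libraries and 103, 84.9 and 82.3 in ultrasound 1, 2 and 3. Ultrasound 2 and 3 lay within control libraries and ultrasound 1 above them. The log2 change was 0.10 with a 95% interval from -0.16 to 0.37 (limma adjusted p 0.543). Its sign turned with scaling, at -0.023 with median-of-ratios size factors and -0.011 with upper-quartile factors, and it was 0.0017 without ultrasound 1.

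**Figure D3:**
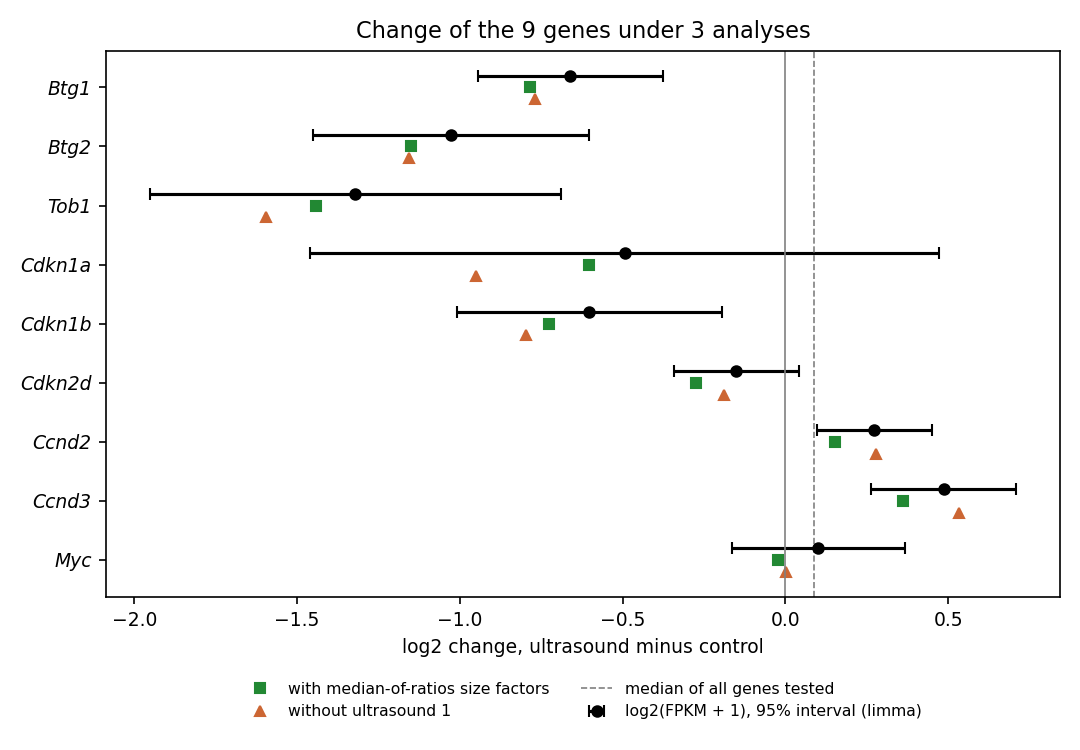
Log2 change, ultrasound minus control (horizontal axis), of each gene: black circles with 95% limma intervals, green squares with median-of-ratios size factors, orange triangles without ultrasound 1; the dashed line is the median of all genes tested (0.09). The BTG and TOB genes lie left of 0 in all 3 analyses, Ccnd2 and Ccnd3 right of it, and Myc beside it.

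The order of the 9 levels differed between the groups. In controls it ran Btg1 (313 FPKM), Btg2 (171), Myc (83.6), Ccnd3 (78.1), Cdkn1b (62.8), Tob1 (48.0), Cdkn2d (44.9), Ccnd2 (37.4) and Cdkn1a (10.5). The ranges of Myc and Ccnd3 overlapped there, as did those of Tob1 and Cdkn2d. In ultrasound libraries Ccnd3 took second place (110.02 FPKM) behind Btg1 (199), followed by Myc (90.0), Btg2 (82.9), Ccnd2 (45.5), Cdkn1b (41.7), Cdkn2d (40.3), Tob1 (19.1) and Cdkn1a (8.04). Ccnd3, Myc and Btg2 overlapped from neighbour to neighbour, as did Ccnd2, Cdkn1b and Cdkn2d, and Tob1 overlapped the range of Cdkn1a. Every control had more Btg2 than Ccnd3, and every ultrasound library more Ccnd3 than Btg2. This was noticed after the values were seen and was not tested.

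Ultrasound 1 stood between the controls and the other ultrasound libraries for most of the 9. As a percentage of the mean log2 deviation of ultrasound 2 and 3 from the control mean, its own deviation was 57.9% for Btg1, 66.4% for Btg2 and 48.4% for Tob1. The CDK inhibitors Cdkn1b and Cdkn2d had 27.1% and 39.1% in ultrasound 1. The D cyclins were closest to ultrasound 2 and 3 in that library, at 73.8% for Ccnd3 and 96.0% for Ccnd2. For Cdkn1a ultrasound 1 deviated upward, by 0.42 on the log2 scale, while ultrasound 2 and 3 deviated by -1.27 and -0.63. Myc deviated by 0.30 in ultrasound 1 and by 0.02 and -0.02 in the others. Without ultrasound 1, 8 of the 9 genes passed (6 lower, 2 higher), all but Myc, but so did 53.7% of all genes tested, 19.7% lower and 34.1% higher.

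**Figure D4:**
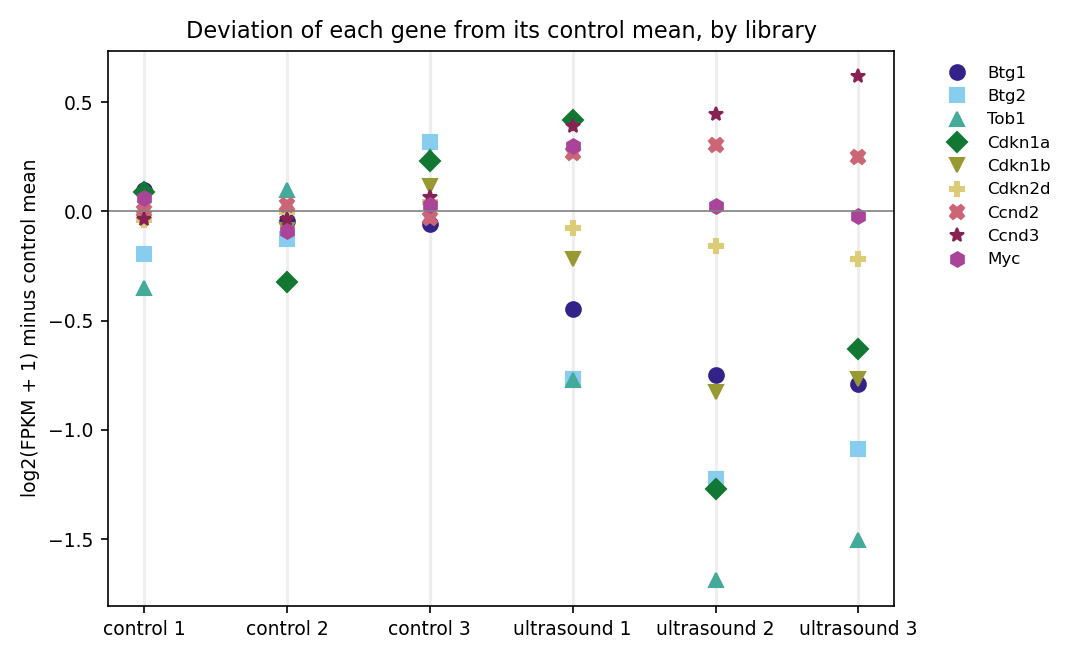
Deviation of log2(FPKM + 1) of each gene from its control mean (vertical axis) in the 6 libraries (horizontal axis). Btg1, Btg2 and Tob1 lie between -0.44 and -0.77 in ultrasound 1 and lower in ultrasound 2 and 3, whereas Cdkn1a is at 0.42 in ultrasound 1 and at -1.27 and -0.63 in the other ultrasound libraries.

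The calls depended on which libraries were included, while the log2 changes moved less. With 1 library left out at a time, the log2 change lay between -0.77 and -0.60 for Btg1, -1.16 and -0.87 for Btg2, -1.60 and -1.14 for Tob1, and 0.42 and 0.53 for Ccnd3. With control 2, control 3, ultrasound 2 or ultrasound 3 left out, 0 of the 9 genes passed in limma. Of all genes tested, 0 passed in these fits. Each time 6 of the 9 had an unadjusted p under 0.05, as did 1962 to 2154 of the 10655 genes tested. With median-of-ratios size factors 3 of the 9 passed, Btg1, Btg2 and Tob1, all lower, against 4.39% of all genes, 1.76% lower and 2.64% higher. Ultrasound 1 alone was set against the controls with a term for ultrasound 2 and 3, which assumes the lone library to vary like the others. The log2 change was then -0.44 for Btg1, -0.77 for Btg2, -0.77 for Tob1 and 0.39 for Ccnd3. The median over all genes tested was 0.06 in that fit. Without control 1, Btg2 and Tob1 passed (limma adjusted p 0.0380 and 0.0434), and Btg1 and Ccnd3 did not (0.0729 and 0.0853). The authors' deposited table gives q under 0.05 for 5 of the 9 (Btg1, Btg2, Tob1, Cdkn1b and Ccnd3). It does so for 12.3% of all its 17744 genes, 4.98% lower and 7.3% higher. Those shares include genes that the filter on low values left out of the limma shares. In that table the log2 fold changes are -0.78 for Btg1, -1.17 for Btg2, -1.45 for Tob1 and 0.37 for Ccnd3.

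Other genes of the same pathways were read from lists. Of 111 tested genes in 7 lists, 6 passed, 1 higher and 5 lower, where 8.11% of all genes did, and their median log2 change was 0.00. With median-of-ratios size factors 7 passed, 0 higher and 7 lower. Among the other BTG/TOB genes and the deadenylase machinery, 1 of 16 passed. That gene was Tob2, the close relative of Tob1, which fell from 41.8 ± 9.28 to 19.4 ± 3.64 FPKM (SD, n = 3 each), a log2 change of -1.06 (limma adjusted p 0.0322). The list had a median of -0.07. In every ultrasound library 5 of the 16 lay below all controls and 1 above them, against 8.96% and 25.9% of all genes. Log2 changes of its other members ran from -0.61 for Cnot6l to 0.33 for Cnot8 (limma adjusted p 0.0851 and 0.0777), both catalytic deadenylase subunits. Cnot7 and Cnot6, also catalytic subunits, were at -0.50 and -0.47 (limma adjusted p 0.181 and 0.213).

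Of 18 tested G1 cyclins, CDKs, other CDK inhibitors, pocket proteins and E2F factors, 0 passed by limma. The median log2 change was 0.12. Ccne2, an E-type cyclin that acts after the D cyclins, had the greatest difference at -0.58 (limma adjusted p 0.0511), and the activator E2f2 was at 0.56 (limma adjusted p 0.0750). Ccne2 had 1.70, 1.60 and 1.76 FPKM in control libraries and 0.907, 1.02 and 0.499 in ultrasound 1, 2 and 3. With median-of-ratios size factors Ccne2 passed (limma adjusted p 0.0497), at levels near the filter limit of FPKM 1. Of the 20 S phase and mitosis genes, 1 passed: Pcna, the sliding clamp of DNA polymerase, which fell from 184 ± 6.34 to 125 ± 10.4 FPKM (SD, n = 3 each; log2 change -0.56, limma adjusted p 0.0311). The median of that list was -0.05.

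The MYC network held 10 tested genes, of which Mxi1 passed. Mxi1 encodes a MAX partner that opposes MYC, and it rose from 3.58 ± 0.203 to 5.80 ± 0.472 FPKM (SD, n = 3 each; log2 change 0.57, limma adjusted p 0.0312). With median-of-ratios size factors the limma adjusted p of Mxi1 was 0.0586. Among 18 textbook MYC-activated genes, Odc1, the rate-limiting enzyme of polyamine synthesis, fell from 171 ± 7.89 to 61.4 ± 28.7 FPKM (SD, n = 3 each; log2 change -1.56, limma adjusted p 0.0316). The other 17 did not pass, 6 of the 18 had changes above 0 and 12 below, and the list median was -0.21. Over the same libraries Myc itself ranged from 78.3 to 103 FPKM.

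Of 14 other factors known for T cell quiescence, 1 passed: Zfp36l1, an AU-rich element binding protein, which fell from 152 ± 12.3 to 97.8 ± 16.4 FPKM (SD, n = 3 each; log2 change -0.65, limma adjusted p 0.0414). The list was split, 7 higher and 7 lower, with a median of -0.12. In every ultrasound library 6 of the 14 lay below all controls and 3 above them, against 8.96% and 25.9% of all genes. Foxo1 had a log2 change of -0.29 (limma adjusted p 0.0802). With median-of-ratios size factors Foxo1 passed, at -0.42 with a limma adjusted p of 0.0480. Of 15 tested p53 targets, 1 passed: Gadd45a, a stress-induced growth arrest gene, which fell from 22.3 ± 2.18 to 9.89 ± 3.77 FPKM (SD, n = 3 each; log2 change -1.15, limma adjusted p 0.0394). In that list 9 of 15 were lower, with a median of -0.18.

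Immediate early genes, which like Btg2, Tob1 and Myc respond within a short time to stimulation, moved with the BTG and TOB genes. Of 23, 15 passed, all lower, against 1.56% of all genes, and the median log2 change was -1.40. Their summed level was 5959 to 7452 FPKM in controls, 3954 in ultrasound 1, and 1605 and 2473 in ultrasound 2 and 3. Of 10 tested heat shock genes 2 passed, both lower (median -1.17). Their summed level was 1700, 2617 and 3886 FPKM in control 1, 2 and 3 and 1334 to 1467 in ultrasound libraries, so control 1 lay nearer to the ultrasound libraries than to control 3. Control 1 was also the lowest control for Btg2 and Tob1, and control 3 the highest. Btg1 ran the other way, at 335, 303 and 301 FPKM in control 1, 2 and 3. These groups were lower in ultrasound libraries as Btg1, Btg2 and Tob1 were, and their part in the result was not tested.

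**Figure D5:**
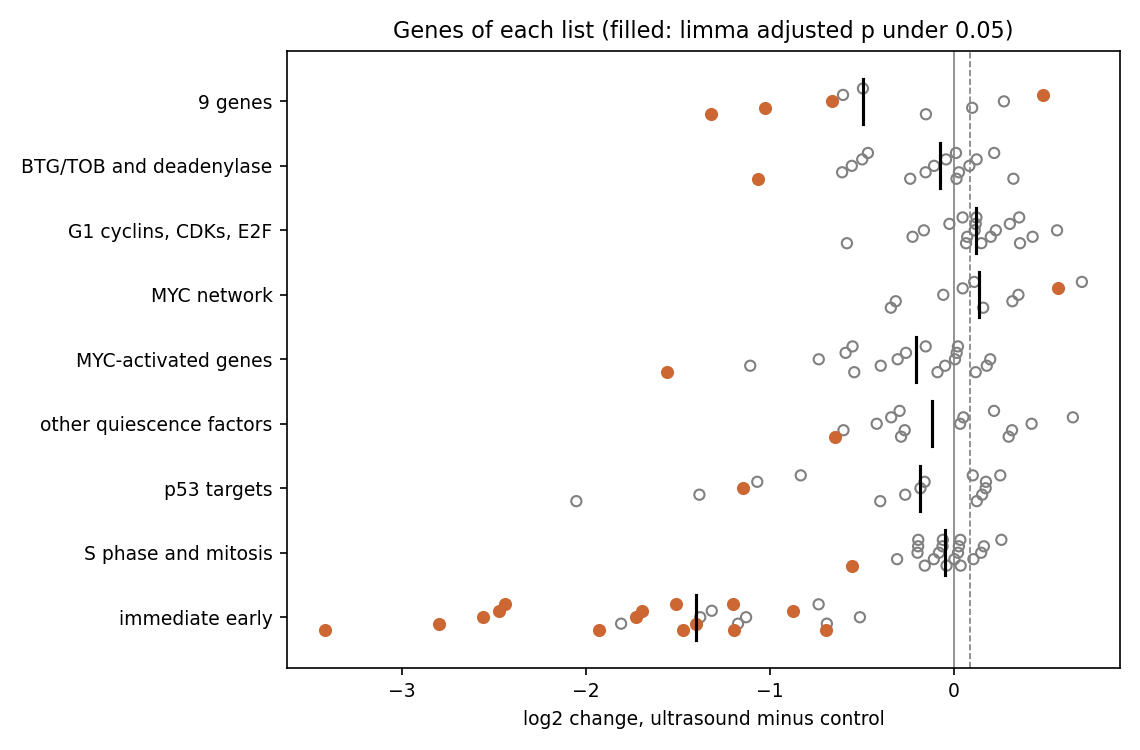
Log2 change, ultrasound minus control (horizontal axis), of each tested gene in the 9 genes and 8 lists; filled points have a limma adjusted p under 0.05, black bars are list medians and the dashed line is the median of all genes. The 7 pathway lists have medians between -0.21 and 0.14, the 9 genes -0.49 and the immediate early list -1.40.

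Markers of other cells differed too. Monocyte and macrophage markers summed to 444 to 970 FPKM in controls and 2221 to 3694 in ultrasound libraries, with 5 of 12 higher past the threshold. Neutrophil markers summed to 189 to 579 FPKM in controls, 2328 in ultrasound 1, and 654 and 688 in ultrasound 2 and 3, with 4 of 11 higher. NK cell markers summed to 48.0 to 141 FPKM in controls, 231 in ultrasound 1, and 262 and 386 in ultrasound 2 and 3, with 2 of 5 tested higher. Tyrobp, which myeloid cells also express, made up 136 FPKM of the sum in control 1, 222 in ultrasound 1 and 359 in ultrasound 3. The median log2 deviation of the NK list from the control mean was -0.07 in ultrasound 1 and 1.73 and 1.24 in ultrasound 2 and 3. B cell markers summed to 255 to 396 FPKM in controls, 190 in ultrasound 1 and 978 and 849 in the remaining libraries, with 0 of 10 past the threshold. Dendritic, erythroid and CD4 or regulatory T cell markers had 0 of 3, 0 of 6 and 0 of 6. Their median log2 changes were 0.78, -0.52 and 0.26. In the CD4 or regulatory list 4 were higher and 2 lower. Ctla4 had 86.0, 88.8 and 81.5 FPKM in control libraries and 76.8, 14.4 and 15.8 in ultrasound 1, 2 and 3. Zbtb7b had 9.28, 8.81 and 11.5 FPKM in control libraries and 13.8, 19.4 and 28.8 in the ultrasound libraries. Of the markers in the table, 0 were at 0 FPKM in any library. Expression outside T cells, known for the D cyclins and CDK inhibitors, was not separated for any of the 9 genes. The part of other cells in these results was not tested.

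The genes whose pattern lay closest to each member were found by the root mean square distance between centred log2(FPKM + 1) profiles over the 6 libraries. Nearest to Btg2 was Tob2, at 0.11, followed by Tgif2, a transcriptional repressor, at 0.11. Tob1 was nearest to Sertad1, which encodes a CDK4-binding protein, and to Siah2, a ubiquitin ligase, both at 0.06. Btg1 was closest to Zfas1, a small nucleolar RNA host gene (0.05), and H3f3b, a histone H3.3 gene (0.06). Cdkn1b was closest to the splicing factor gene Srsf3 (0.03) and to Gbp9 (0.05).

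Cdkn1a was nearest to Id1, an inhibitor of basic helix-loop-helix factors, at 0.15. Id1 too was highest in ultrasound 1 (4.77 FPKM) and lowest in ultrasound 2 (1.01 FPKM). The second gene for Cdkn1a was Gm4963, at 0.19. Distances were smaller for the genes that varied little, where many profiles are alike. Ccnd3 was nearest to Slc36a1 and Por (0.03 each), Ccnd2 to Camk1d and Wiz (0.02 each), Cdkn2d to Tlk2 and Clcn4 (0.02 each) and Myc to Ccdc115 and Wdr77 (0.03 each). With 6 libraries in 2 groups such likeness is a description only.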

How the data were processed

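RNA-seq of 3 control and 3 ultrasound libraries was analysed from the authors' full table. HISAT2, HTSeq, DESeq2, R 3.2.0 and the build mm10 are named, without roles, in the submitters' processing notes. The authors deposited FPKM values per library, per the file headers. The authors also deposited the signal of DESeq2 normalized group means, their ratio (fold change), its log2, and p-value and q-value columns. A filtered table with the same columns was not used.

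The relation between FPKM and group means gave whole reads (100% of 63992 values between 0.5 and 1000 reads lay within 0.05 of a whole number). Limma 3.58.1 in R 4.3.3 (trend, robust) was fitted to log2(FPKM + 1) of 10655 genes (FPKM 1 or higher in 3 or more libraries), and tested on simulated data. Ratios used two-sided exact permutation tests. Tables and figures used pandas 2.3.3, numpy 2.4.6 and matplotlib 3.10.9 under Python 3.11.15. Reads carry no molecular identifiers, so read numbers describe counting error only. Members and lists were chosen with earlier results of these data known. Named list genes are up to 4 per list with the greatest change among those that passed, or 2 where none did. Cnot6, Cnot6l, Cnot7, Cnot8, Foxo1 and Tyrobp were named after their values were seen. Ccnd1, Bysl, Gm41590, Ccnd3-ps, Btg1-ps1, Btg1-ps2, AC167363.2 and 9330179D12Rik were named as relatives or neighbours of members. Patterns are the 2 nearest genes per member. Alternatives covered scaling, pseudocount, filters, the robust option, a replicate block, voom, a term for ultrasound 2 and 3, thresholds, the authors' values and each library left out.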

Additional observations from a re-analysis of the deposited data

How the results depend on the processing

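The log2 changes of Btg1, Btg2, Tob1, Cdkn1b, Cdkn2d, Ccnd2 and Ccnd3 kept their direction under each of 17 alternatives. Of 153 results for the 9 genes, 112 kept direction and side of the threshold, 32 lost the adjusted p, 5 gained it and 4 turned. Those that turned had not passed: Myc at -0.023 with median-of-ratios size factors, -0.011 with upper-quartile factors and -0.017 in the authors' deposited table, and Cdkn1a at 0.42 with a term for ultrasound 2 and 3. The cause was not tested. Median-of-ratios size factors called 468 of all genes (281 higher, 187 lower) against 864 (698 higher, 166 lower), and upper-quartile factors 578 (365 higher, 213 lower). Without a filter on low values 0 genes, 0 members and 0 pathway genes passed in limma, with 4216, 6 and 34 at an unadjusted p under 0.05. An adjusted p under 0.01 gave 0, 0 and 0, with 3321, 6 and 33 at an unadjusted p under 0.05. A limit of 0.1 gave 1962, 6 and 22. With a term for ultrasound 2 and 3, 150 genes, 0 members and 1 pathway gene passed, with 6 members at an unadjusted p under 0.05. The authors' deposited table has 2179 of 17744 genes (12.3%) and 27 of 120 pathway genes with q under 0.05. Of the 27 pathway genes, 2 were higher and 25 lower, where 7.3% of all genes were higher and 4.98% lower. Leaving out one library gave 0 to 5727 genes, 0 to 8 members and 0 to 60 pathway genes, the highest without ultrasound 1, whereas without control 1 there were 567, 2 and 1, and each other library left out gave 0, with 1962 to 2154 genes at an unadjusted p under 0.05. The Ccnd3 share differed by 1.97 to 3.84 points and the log2 ratio of Btg2 to Btg1 by -0.52 to -0.18. No pairing by replicate number was visible (correlations of deviations -0.04, 0.05 and 0.06), which does not show that none existed. With the replicate block 0 genes, 0 members and 0 pathway genes passed, with 3249, 6 and 34 at an unadjusted p under 0.05. In that pairing the 2 within-library ratios had an exact permutation p of 0.25, the smallest 3 pairs can give.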
